A study of Mus musculus with 2 samples.

Results

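Wing* is 1 of 13 cell classes that the authors named in single-cell transcriptomes of mouse corneal epithelium, and its members here are the cells that carry exactly this name in the deposited table of cells. There were 458 such cells among 33885, of which 446 lay in the dry eye library and 12 in the control library. They made up 2.72% of the 16420 dry eye cells (95% interval 2.47 to 2.98, exact Clopper-Pearson) and 0.0687% of the 17465 control cells (0.0355 to 0.120). Among dry eye cells named either Wing* or Wing, 11.6% were Wing*. The sources used here do not say what the asterisk means, which 4 other classes also carry.

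The dry eye library was made from 6 pooled right eyes of male C57BL/6J mice aged 10 weeks, whose extraorbital and intraorbital lacrimal glands on the right had been excised 9 days earlier. The control library was made from the 7 pooled left eyes of the same 7 animals, so treatment and side of the eye cannot be told apart, and 1 right eye hurt in surgery was left out. Epithelium was freed from the cornea with an enzyme and dissociated with trypsin before 10x Chromium 3′ v3.1 libraries were made. There was 1 library per group and no replicate check, and cells are not replicates. The class itself was drawn from these counts, so all differences below are descriptions without a test, and all intervals cover counting error only.

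The corneal surface is a stratified epithelium whose basal cells move upward as wing cells, named for their shape, and end as flat squamous cells that are shed into the tear film. Wing and squamous cells of a healthy cornea are rich in the keratin Krt12 and do not cornify. In skin, by contrast, cells of the upper layers make a cornified envelope from small proline-rich proteins, loricrin and late cornified envelope proteins, cross-linked by transglutaminases, and keratins Krt16 and Krt17 appear there after wounding.

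Unique molecular identifiers (UMIs), which count captured RNA molecules, were deep in this class. The 446 dry eye Wing* cells had a median of 17484 UMIs and 3122 genes, against 11815 UMIs and 2608 genes in 3389 Wing cells, 12466 and 2395 in 217 Squam* cells, and 16145 and 3111 in 85 LSC* cells. The range within Wing* ran from 2212 to 150501 UMIs, and 22.9% of Wing* cells lay above the 95th percentile of the whole dry eye library (34046 UMIs), compared with 13.7% of Wing, 10.6% of Squam* and 4.71% of LSC* cells. The 44 deepest Wing* cells held 34.0% of the UMIs of the class. Doublets were not called, and their part in the results was not tested. Leaving out the 5% of dry eye cells with the most UMIs reduced the share of Wing* cells to 2.21% of the library.

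Some pairs of barcodes had very similar counts, and whether such pairs are separate cells was not tested. For each pair of cells, the split of every gene's counts was compared with the split of the 2 totals, and a mean chi-square per gene near 1 means that the pair differed by no more than counting noise. Of the 446 dry eye Wing* barcodes, 211 (47.3%) belonged to a pair with a mean under 1.3, a limit set after the values were seen, while the median over all 99235 pairs was 6.28. Joined by such pairs, the 446 barcodes formed 333 sets, the largest of 4 barcodes, and paired barcodes differed at a median of 12 bases. The same held for 50.7% of Squam* and 56.5% of LSC* barcodes. Cells with at least 10000 UMIs were also judged on the 1500 most abundant genes of their class. Of these, 35.2% of Wing*, 26.5% of Wing, 31.85% of Squam*, 50% of LSC* and 21.1% of Conj cells were in such a pair. The classes differ in size, and 63 of 54946 pairs were under the limit in Wing* and 318 of 1997001 in Wing. With only the deepest barcode kept of each Wing*, Squam* and LSC* set, 1 of 159 named ratios over Wing moved by more than 1.5 times, that of the simple keratin Krt8, and the counts of genes are given where they stand. Between the libraries 74 barcodes were shared, 3 of them on dry eye Wing* cells.

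The 12 control cells named Wing* went against the markers of the class and are kept apart. Sprr1b, Sprr2d, Dmkn, Dynap, Ly6d and Tm4sf1 had 0 UMIs in all 12, and S100a9 had 15 UMIs in 3 of them. Krt14 stood at 9368 CPM (counts per 1000000 UMIs of the summed cells) in dry eye Wing* cells and at 392.4 CPM in these 12, and Krt12 at 16694 CPM in dry eye Wing* cells and at 3300 CPM in the 12. Psca, a surface antigen, had 1012 CPM in dry eye Wing* cells and 36760 CPM in the 12. Asprv1, a protease of upper epidermal layers, had 2560 and 27620 CPM in the same order, and the stress gene Gadd45b 36.2 and 9909 CPM. Cxcl2, a chemokine, had 46 UMIs in the dry eye Wing* cells and 697 UMIs in 4 of the 12. The sections that follow therefore describe the dry eye cells, and adding the 12 control cells gave 270 genes higher and 156 lower than in Wing.

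Small proline-rich genes, precursors of the cornified envelope, stood high in Wing* cells. Sprr1b had 1281 CPM in Wing* cells, against 64.8 in Wing, 70.9 in Squam* and 449 in LSC* cells. Its level in Wing* was 19.8 times that in Wing (19.1 to 20.5), 18.1 times that in Squam* (15.97 to 20.5) and 2.85 times that in LSC* (2.65 to 3.07). Sprr1a, which encodes a related envelope precursor, had 3900 CPM in Wing*, 679.6 in Wing, 1496 in Squam* and 858 in LSC* cells, 5.74 times the Wing level (5.66 to 5.82). Both were higher in Wing* than in each of the other 12 classes of the library, and their levels in Basal cells were 1.42 and 5.67 CPM. The Wing cells of the control library had 0 Sprr1b UMIs among 84330218, and 22.2 CPM of Sprr1a.

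Sprr2 genes were scarce in Wing and Squam* cells. Sprr2d had 837 UMIs in Wing* cells, or 71.0 CPM, against 0.287 CPM in Wing, a ratio of 247 (156 to 419), 2.75 in Squam* and 73.6 in LSC* cells. Sprr2h had 28.4 CPM in Wing* and 0.319 in Wing, a ratio of 89.1 (56.8 to 148). Sprr2f had 241 UMIs in Wing* and 0 in Wing, at least 427-fold higher against a floor of 3 counts over the Wing class, with a lower limit of counting error on that ratio of 345. A few cells carried these counts: the 10 Wing* cells with the most held 69.1% of the Sprr2d and 73.4% of the Sprr2f UMIs. Without the 10 cells with the most UMIs of the gene in each class, no Wing UMI of either gene was left. Against the floor, the ratios over Wing were then at least 462 for Sprr2d and at least 116 for Sprr2f. A mean over cells in place of a sum gave 2145 for Sprr2d. Sprr2 genes are so similar that reads may be split among neighbours, so the level of each single gene is uncertain. Of 11 listed Sprr genes in the table, 5 had at least 50 UMIs over both classes and 20 CPM in one, which is what was required for a comparison, and all 5 were at least 2-fold higher in Wing* than in Wing, against 5.23% of all 4746 genes compared. A gene that meets these minimums through its level in Wing* alone had to differ, so such counts are descriptions and no support.

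The stretches before the 5 Sprr genes that were compared are shown because these genes share a short motif there, together with that of Dmkn, which lies on another chromosome, all picked after the matches were seen. The sequences are the 250 bases before the start of each gene, 5′ to 3′ on the gene's strand, from RefSeq for build GRCm38.p6. The starts are those of RefSeq, and for Sprr1a and Sprr1b they lie a few bases inside the gene as GENCODE M21 draws it, which shifts positions counted from them. They lie at chr3:92485882-92486131 (minus strand), chr3:92438780-92439029 (minus), chr3:92338890-92339139 (plus), chr3:92364937-92365186 (plus), chr3:92385435-92385684 (plus) and chr7:30763506-30763755 (plus), and capitals mark matches to TGANTCA, the sequence bound by AP-1 factors of the Fos and Jun families.
Sprr1a: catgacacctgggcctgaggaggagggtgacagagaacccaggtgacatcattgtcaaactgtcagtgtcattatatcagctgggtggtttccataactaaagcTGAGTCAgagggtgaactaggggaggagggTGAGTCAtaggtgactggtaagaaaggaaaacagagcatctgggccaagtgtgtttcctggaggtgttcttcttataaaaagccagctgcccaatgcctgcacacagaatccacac
Sprr1b: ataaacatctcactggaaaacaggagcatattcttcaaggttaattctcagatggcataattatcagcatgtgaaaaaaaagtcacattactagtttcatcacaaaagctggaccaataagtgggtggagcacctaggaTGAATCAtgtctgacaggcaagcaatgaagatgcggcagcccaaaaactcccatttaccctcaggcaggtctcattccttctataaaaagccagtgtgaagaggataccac
Sprr2d: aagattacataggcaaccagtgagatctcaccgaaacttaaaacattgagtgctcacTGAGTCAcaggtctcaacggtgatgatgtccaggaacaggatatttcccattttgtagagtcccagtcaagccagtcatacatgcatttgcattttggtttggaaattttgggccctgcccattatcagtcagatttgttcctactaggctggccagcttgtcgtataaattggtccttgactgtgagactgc
Sprr2f: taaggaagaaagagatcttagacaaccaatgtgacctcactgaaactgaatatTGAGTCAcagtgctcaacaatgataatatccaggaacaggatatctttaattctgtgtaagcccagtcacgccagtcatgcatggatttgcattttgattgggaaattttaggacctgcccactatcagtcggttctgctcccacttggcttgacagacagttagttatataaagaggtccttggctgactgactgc
Sprr2h: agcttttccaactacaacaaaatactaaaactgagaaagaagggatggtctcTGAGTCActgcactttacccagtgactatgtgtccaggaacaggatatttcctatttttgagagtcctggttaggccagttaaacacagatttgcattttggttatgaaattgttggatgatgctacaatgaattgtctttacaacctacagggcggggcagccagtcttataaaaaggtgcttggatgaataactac
Dmkn: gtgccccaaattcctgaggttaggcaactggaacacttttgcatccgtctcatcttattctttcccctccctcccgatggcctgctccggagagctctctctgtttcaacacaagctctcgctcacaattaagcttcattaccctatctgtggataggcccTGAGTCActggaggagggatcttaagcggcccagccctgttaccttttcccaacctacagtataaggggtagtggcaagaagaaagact

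TGANTCA reads alike on both strands. In windows of 300 bases, which run 50 bases past the start, it occurred in all 5 Sprr promoters and in 7.81% of the 32851 promoters in the table. Counted from the gene's start, its first base lay at -146 and -116 before Sprr1a, at -111 before Sprr1b, at -193 before Sprr2d, at -197 before Sprr2f and at -198 before Sprr2h. The Dmkn window held it at -89. The string TATAAA, part of the TATA box, stood at -43 before Sprr1a, at -30 before Sprr1b and at -29 before each of the 3 Sprr2 genes, without overlap with the other motif, and occurred in 13.6% of all windows. Among the windows searched, those of S100a9, Tm4sf1, Cnfn, Lce3a, Krt12 and Il1f9 held no TGANTCA. The windows of the remaining genes searched, S100a8, Krt14 and Socs3, held none either. They are not set at the gene starts of the annotation used for positions here. Sprr2d and Sprr2f windows were identical at 42.7% of positions without gaps, and those of Sprr1a and Sprr1b at 23.7%. Entries for Krt16, Krt17, Dynap, Ly6d, Crct1 and Il1f6 were missing from the promoter table. These matches describe the letters only.

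**Figure D1:**
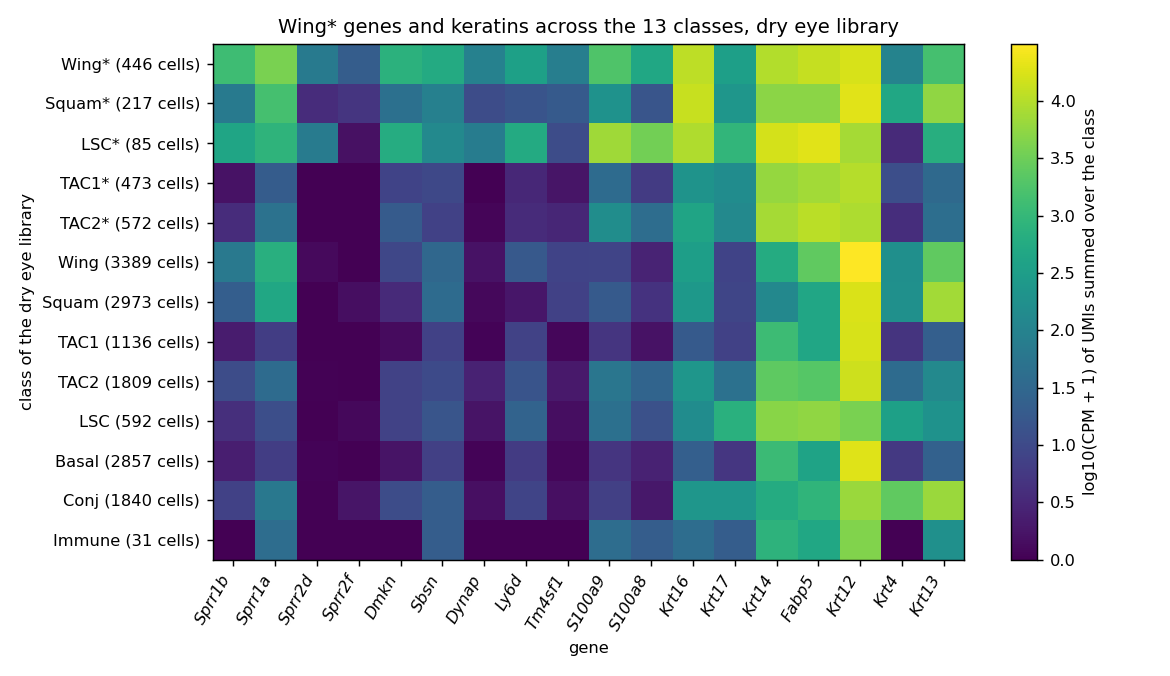
Levels of 18 genes (columns) in the 13 classes of the dry eye library (rows, with cell numbers), as log10 of CPM + 1 of UMIs summed over the class. Sprr1b, Sprr1a, Sbsn and Tm4sf1 are highest in Wing*, while S100a9, S100a8 and Krt14 are highest in LSC* and Krt12 in Wing.

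Other genes of the cornified envelope and granular layer were higher as well, but not all. Of 13 listed genes that were compared, 7 were at least 2-fold higher in Wing* than in Wing and 0 lower, with a median log2 ratio of 1.24, whereas the median over all 4746 genes was -0.02. Dmkn, which encodes dermokine, a secreted protein of the upper epidermis, had 784.7 CPM in Wing*, 8.14 in Wing and 616.3 in LSC* cells. The ratio of Dmkn over Wing was 96.4 (88.2 to 106), or 158 without the 5% of cells with the most UMIs. Sbsn, or suprabasin, its neighbour on chromosome 7, had 553 and 30.9 CPM. Cnfn, an envelope protein, had 1360 CPM in Wing* and 57.8 in Wing, a ratio of 23.5 (22.7 to 24.4), but its level in Squam* was higher still, at 2317 CPM. Lce3a, of the late envelope family, was 37.0 times as high in Wing* as in Wing, and Crct1, a cysteine-rich protein gene of the same cluster that is not on this list, 21.4 times. Dmkn and Lce3a had under 20 CPM in Wing and were compared only through their level in Wing*. The count of this list is therefore a description. Calm4 had a ratio of 3.14, which was 1.62 without the 10 cells with the most of its UMIs in each class. Against this, Calml3, a calmodulin-like protein of epithelia, had a ratio of 0.525 and Asprv1 of 0.617, and the envelope scaffolds Ppl and Evpl, named here after their values were seen, had 0.843 and 0.745.

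Many of these genes are neighbours. The epidermal differentiation complex is a cluster of S100, Sprr, Lce and other envelope genes, taken here as the genes between S100a1 and S100a10 on chromosome 3, positions 90511034 to 93564643 of mm10, a definition added after the first results were seen. Of its 46 genes in the table, 20 were compared, and 13 (65%) were at least 2-fold higher in Wing* than in Wing and 0 lower. Among the 4726 other genes compared, 235 (4.97%) were higher and 157 lower. S100a8, S100a9, Pglyrp4, Sprr2d, Sprr2f, Sprr2h, Lce3a and Crct1 had under 20 CPM in Wing and were compared only through their level in Wing*. The shares are therefore descriptions and no support. The 7 genes of the complex that were not higher by that much were all S100 genes, S100a1, S100a14, S100a16, S100a3, S100a6, S100a11 and S100a10, with ratios of 0.930 to 1.61.

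**Figure D2:**
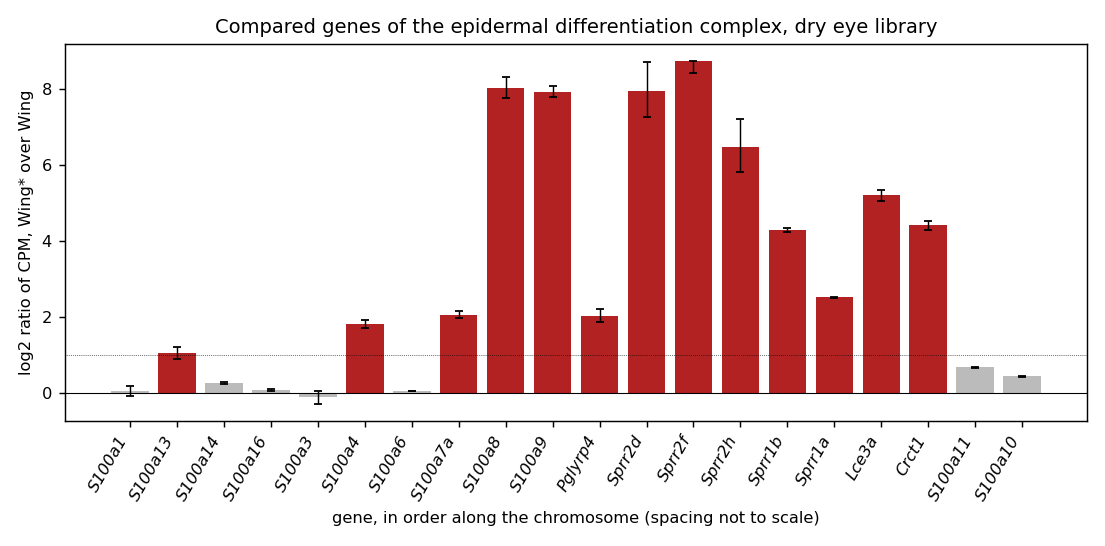
Bars give the log2 ratio of CPM, Wing* over Wing, for the 20 compared genes of the epidermal differentiation complex in their order along chromosome 3 (spacing not to scale), with 95% intervals of counting error. The 13 red bars reach at least 1 and, besides S100a13 and S100a4, run from S100a7a to Crct1, unbroken among compared genes only. Genes between them that were not compared are not drawn. The 7 grey bars are S100 genes. The Sprr2f bar, with 0 Wing UMIs, is set against a floor of 3 counts and has no upper limit.

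Over all genes, 248 of 4746 (5.23%) were at least 2-fold higher in Wing* than in Wing, and 157 (3.31%) at least 2-fold lower. At 4-fold the counts were 76 and 23. With only 1 barcode per set of like barcodes they were 245 and 167. Leaving out the 5% of cells with the most UMIs gave 278 higher and 246 lower, so the count of lower genes depends on the deepest cells. Alarmins, the membrane protein gene Dynap and keratins of stressed epidermis also had high ratios. S100a9, a subunit of the alarmin calprotectin at chromosome 3, 90692632 to 90695721, had 1798 CPM in Wing* and 7.33 in Wing, a ratio of 245 (224 to 270), or 812 without the 5% of cells with the most UMIs. Its partner S100a8 had 481 and 1.83 CPM. Dynap stood at 92.2 and 0.685 CPM.

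**Figure D3:**
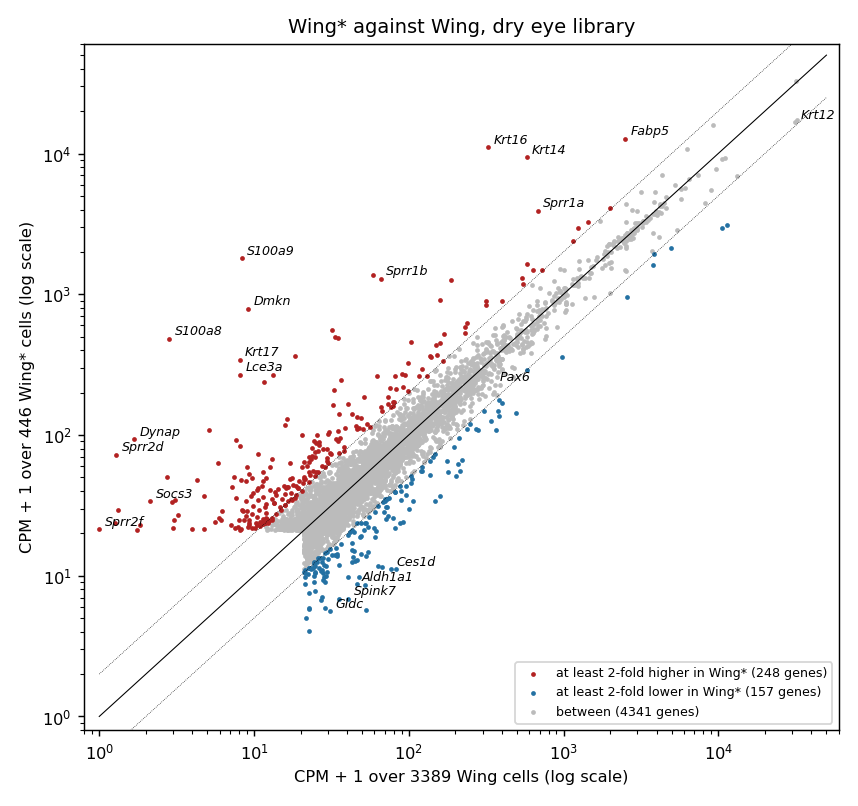
Each point is a gene, with CPM + 1 over 446 Wing* cells on the vertical axis and over 3389 Wing cells on the horizontal axis, both on log scales. The solid line marks equal levels and the dotted lines a 2-fold difference. The 248 red genes lie above it, with S100a9, Dmkn, Krt16 and Krt14 far out, and the 157 blue genes below it.

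Keratins differed by type. Krt16 at chromosome 11, 100246091 to 100248902, had 11060 CPM in Wing*, 325 in Wing, 13217 in Squam* and 9031 in LSC* cells. Its ratio over Wing was 34.0 (33.5 to 34.5), and no class of the library beside Squam*, LSC* and Wing* itself exceeded 428 CPM. Krt17, often found with Krt16 in wounded skin, had 342 CPM in Wing* and 7.06 in Wing. Krt14, the keratin of basal layers, at chromosome 11, 100203162 to 100207548, had 9368 CPM in Wing*, 576.7 in Wing, 5155 in Squam* and 15945 in LSC* cells, a ratio over Wing of 16.2 (16.1 to 16.4). Krt5, its usual partner, did not go with it: 7779 CPM in Wing* and 9620 in Wing, a ratio of 0.809. Krt15, another basal keratin, had a ratio of 0.498 (0.491 to 0.505). Krt6a and Krt6b, which are stress keratins in skin, were 1.71 and 1.68 times as high in Wing* as in Wing.

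Genes of corneal identity were lower in Wing* in 13 of 16 cases, most by less than 2-fold. This counts any ratio below 1, which was common among all genes, whose median log2 ratio was -0.02. Krt12, at chromosome 11, 99415666 to 99422259, had 16694 CPM in Wing* and 31536 in Wing, a ratio of 0.529 (0.527 to 0.532), or 0.484 without the 5% of cells with the most UMIs, and once every cell was reduced to 3000 randomly drawn UMIs it was still found in 99.3% of Wing* cells. Pax6, the regulator of eye development, had 225 and 358 CPM, a ratio of 0.629 (0.604 to 0.655). Of the 16, all compared, 3 were at least 2-fold lower and 1 higher, with a median log2 ratio of -0.69, against 3.31% lower and 5.23% higher among all 4746 genes. The 3 were Aldh1a1, a retinal dehydrogenase, at 0.171 (0.137 to 0.211), the secreted Slurp1 at 0.284 and the desmoglein Dsg1a at 0.418. The higher one was Clu, or clusterin, a secreted chaperone, at 2.52 (2.45 to 2.59), which was 1.94 without the 5% of cells with the most UMIs. Against the Wing cells of the control library Krt12 had a ratio of 0.539 and Pax6 of 0.528.

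By the ranking rule, the 10 lowest in Wing* against Wing were Ttc36, Ces1d, Acsm1, Spink7, St8sia6, Spink13, Gldc, Pygl, Aldh1a1 and Fxyd4, with ratios of 0.125 to 0.171. Ces1d, a carboxylesterase, had 10.1 CPM in Wing* and 75.7 in Wing. Gldc, the glycine decarboxylase, had 4.58 and 30.04 CPM, and Pygl, a glycogen phosphorylase, 10.7 and 62.6 CPM. Fxyd4, a regulator of the sodium pump, had 5.85 and 34.4 CPM. Lypd2, a Ly6-type surface protein, and Slurp1 had 3125 and 2976 CPM in Wing*, and 11304 and 10495 CPM in Wing.

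Inflammatory signals of keratinocytes were higher than in Wing. IL-36 cytokines of the IL-1 family are released by stressed epithelia, and Il1f6 (IL-36 alpha) and Il1f9 (IL-36 gamma) had 49.3 and 107 CPM in Wing*, and 1.74 and 4.10 CPM in Wing. Their ratios over Wing were 28.4 (23.1 to 35.2) and 26.2 (22.9 to 30.04). Other classes also carried them, with 66.2 and 197 CPM in Squam*, 50.1 and 174.9 in LSC*, and 28.5 and 51.2 in Squam cells. With Il1f8 and Il1a, 4 of 5 compared genes of the IL-1, IL-36 and IL-20 families were at least 2-fold higher than in Wing, and Il18 was not. Over all genes compared, 5.23% were higher and 3.31% lower. Of genes listed as NF-kB feedback, all 6 compared were higher, with a median log2 ratio of 1.59. The highest was Socs3, which the list holds although it inhibits STAT3 signalling. Socs3 had 32.9 CPM in Wing* and 1.13 in Wing, a ratio of 29.1 (22.5 to 38.0). Bcl3, a nuclear IkB protein, had a ratio of 4.98 (4.48 to 5.53). S100 and antimicrobial genes had 5 of 12 higher and 0 lower, including S100a8, S100a9 and the peptidoglycan receptor Pglyrp4. Il1f6, Il1f9, Socs3, Bcl3, S100a8, S100a9 and Pglyrp4 had under 20 CPM in Wing and were compared only through their level in Wing*. The counts of these lists are therefore descriptions and no support. Of 7 immune markers in the table, 5 had UMIs in Wing* cells, with Cd3e and Cd3g at 0. Their summed level was 4.66 CPM (55 UMIs) in Wing*, 0.159 CPM (10 UMIs) in Wing and 20607 CPM in cells named Immune, and Wing* had the highest sum of the 12 classes other than Immune. Of 4 Langerhans and dendritic markers 3 had UMIs, with Cd207 at 0, and their sum was 3.22 CPM in Wing* and 0.128 CPM in Wing. Of 4 macrophage markers 3 had UMIs, with Adgre1 at 0, and their sum was 1.86 CPM in Wing* and 0.0319 CPM in Wing. Of 3 neutrophil markers 2 had UMIs, with Mmp8 at 0, and their sum was 7.63 CPM in Wing*, 0.255 CPM in Wing and 86.0 CPM in Squam*. These markers were thus higher in Wing* than in Wing, and their part in the results above was not tested.

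Genes seen at wound margins were higher in 8 of 15 cases and lower in 2, with a median log2 ratio of 1.19, against 5.23% higher and 3.31% lower over all genes compared, which holds beside each list here. Plaur, the urokinase receptor, had 32.6 CPM in Wing* and 1.96 in Wing, a ratio of 16.6 (13.6 to 20.6). Tm4sf1, a tetraspanin-like surface protein, had 82.6 and 7.17 CPM, a ratio of 11.5 (10.3 to 12.9). Both had under 20 CPM in Wing and were compared only through their level in Wing*, so the count is a description and no support. F3, the tissue factor of coagulation, and Fn1, fibronectin, were lower, at 0.229 and 0.246. Genes of basement membrane adhesion, which anchor basal cells, were higher in 5 of 11 and lower in 0 (median 0.81), with Lamb3 at 5.39 (4.48 to 6.47). The EGF receptor list, with ligands and feedback genes, had 6 of 14 higher, led by the phosphatases Dusp5 at 3.82 and Dusp1 at 3.14. Of the 12 glycolysis genes compared, 3 were at least 2-fold higher, with a median of 0.72 and Hk2 at 2.68. Tight junction, desmosome and Notch lists had medians between -0.34 and 0.11. In these lists 2 of 12, 0 of 11 and 0 of 6 genes were higher, and 0, 1 and 0 lower, with Cldn1 at 5.09 as the strongest of them.

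Fatty acid binding, antioxidant and retinoid genes added single members with large differences. Fabp5, the epidermal fatty acid-binding protein, had 12680 CPM in Wing* and 2499 in Wing, a ratio of 5.07 (5.04 to 5.11), and Fabp4 a ratio of 12.8. Akr1b8, an aldo-keto reductase, stood at 7.76, the only one of 13 antioxidant genes above 2-fold. Crabp2, a carrier of retinoic acid, had 33.6 and 2.10 CPM, and Aldh1a3, a retinal dehydrogenase, 1266 and 185 CPM. Of 7 retinoid genes compared, 3 were at least 2-fold higher and 1 lower, Aldh1a1, at 0.171. Lgals7, a galectin of stratified epithelia, was 5.72 times as high.

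**Figure D4:**
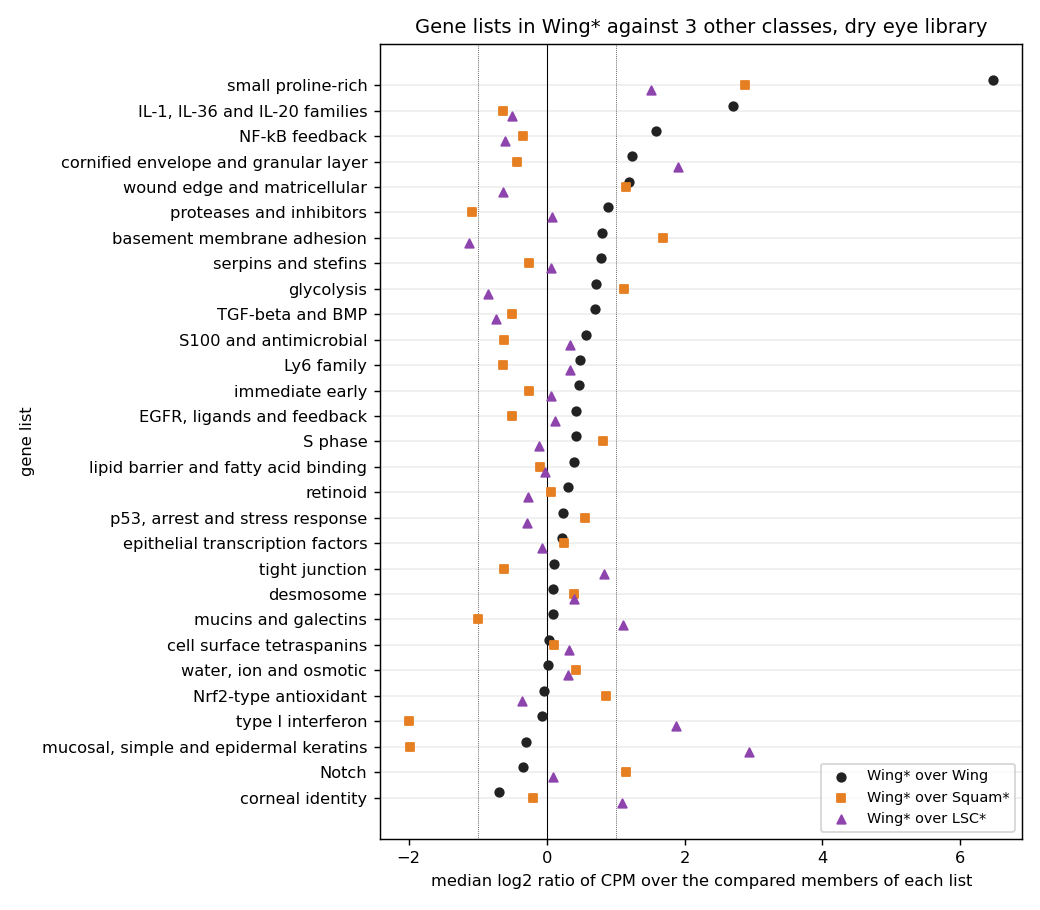
Median log2 ratio of CPM over the compared members of each gene list with at least 5 compared members in Wing* against Wing, for Wing* over Wing (circles), over Squam* (squares) and over LSC* (triangles). The dotted lines mark a 2-fold difference. Small proline-rich genes lie to the right for all 3, whereas IL-1 family and NF-kB feedback genes lie to the right against Wing only.

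Squam* cells had Krt16 at a level near that of Wing* cells, but lower Sprr genes. The ratio of Krt16 in Wing* to that in Squam* was 0.837 (0.828 to 0.846), and that of Krt17 was 1.47. Of 4626 genes compared, 738 (16%) were at least 2-fold higher in Wing* than in Squam* and 361 (7.8%) at least 2-fold lower. This split depends on the scaling: median-of-ratios scaling moves every log2 ratio by -0.49 and the median of all genes from 0.26 to -0.27, and then gives 339 higher and 848 lower. The largest differences are far beyond that shift. S100a8 was 33.7 times as high in Wing* as in Squam* (25.6 to 45.2), Ly6d, a surface protein of squamous epithelia, 26.6 times (20.1 to 35.9), and Dmkn 17.6 times (15.1 to 20.7). All 5 compared Sprr genes were higher by total scaling, and 4 by the other. Basement membrane adhesion genes were higher in 7 of 12, with Lamb3 at 8.23 (4.26 to 18.2). Lower in Wing* were Plekhs1 at 0.0487 (0.0343 to 0.0676), the interferon-induced Ifit1bl1 at 0.0763 and Ifi47 at 0.0503, the choline transporter-like Slc44a4 at 0.0621, and Psca at 0.131. Type I interferon genes were lower in 6 of 9 and higher in 1 (median -1.99), and mucosal, simple and epidermal keratins were lower in 7 of 8, among them Krt4 at 0.213. Both counts stayed at least as large under the other scaling.

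LSC* cells had higher alarmins than Wing* cells and lower genes of upper layers. Of 4805 genes, 395 (8.22%) were at least 2-fold higher in Wing* than in LSC* and 266 (5.54%) lower. S100a9 and S100a8 had ratios of 0.250 (0.245 to 0.256) and 0.141 (0.136 to 0.146), with 1798 and 481 CPM in Wing*, and 7191 and 3412 CPM in LSC*. Sprr2d had 71.0 CPM in Wing* and 73.6 in LSC*, within counting error (ratio 0.965, 0.795 to 1.18). Ly6d had 365.5 CPM in Wing* and 565.6 in LSC*, and Dmkn 784.7 and 616.3 CPM. Cornified envelope genes were higher in 11 of 14 and lower in 0, led by Lce3a, with 3 UMIs in LSC*, at 143 (49.0 to 695), and by Cnfn at 22.7 (18.6 to 28.0). Krt4, a mucosal keratin, was 41.2 times as high (16.04 to 151) and Krt12 2.17 times (2.13 to 2.20). Genes of corneal identity were higher in 8 of 15 and lower in 0. Lower in Wing* were Csf3, a granulocyte growth factor with 2 and 61 UMIs, at 0.00450 (5.33e-04 to 0.0170), the cytokine Il24 at 0.0351 (0.0209 to 0.0566) and the stromelysin Mmp10 at 0.0607. G2 and M phase genes were lower in 12 of 13 and chemokine genes in 4 of 4, and basement membrane adhesion genes in 9 of 13.

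Set against all 3 classes at once, 8 of 4361 genes compared were at least 2-fold higher in Wing*, and 0 at least 2-fold lower. They were Sprr1a, Sprr1b, Sprr2f, Sbsn, Tm4sf1, Calm4 and the uncharacterised 4833423E24Rik and Gm5941. Over Squam*, Sprr1a at 2.61 and Gm5941 at 2.28 lie near the limit and fall under 2-fold with the shift of -0.49 that median-of-ratios scaling brings. Calm4 over Wing was 1.62 without the 10 cells with the most of its UMIs in each class. Over the next highest class of the library, whichever it was, Sprr2f stood 5.31-fold higher (3.104 to 9.86), Tm4sf1 4.62-fold (3.59 to 6.04), Sbsn 4.30-fold (3.75 to 4.97), Calm4, a calmodulin-like protein of epidermis, 3.14-fold (2.88 to 3.43), Sprr1b 2.85-fold and Sprr1a 2.61-fold. Sat1, an enzyme of polyamine breakdown, followed at 1.41. For 143 of 7472 genes (1.91%) Wing* was the class with the highest level. Over 8471 genes, log2(CPM + 1) of Wing* correlated most with Wing (Pearson r 0.958), then with LSC* (0.943), Squam* (0.935) and Conj (0.926), a description across genes of 1 library.

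The starred classes share part of their difference from the class of the same name without the asterisk. Of the genes higher in Wing* than in Wing and compared in both pairs, 67.8% were also higher in LSC* than in LSC (143 of 211), 51.7% in Squam* than in Squam (89 of 172), 48.9% in TAC1* than in TAC1 (65 of 133) and 46.3% in TAC2* than in TAC2 (68 of 147). Of all genes compared in those 4 pairs, 14.1%, 8.78%, 3.19% and 3.35% were higher and 16.1%, 4.02%, 2.29% and 6.4% lower, in the same order. As shares of the other class's higher genes the overlaps were 22.9%, 27.6%, 51.2% and 58.6%. Beside these stands the 5.23% of all genes compared that were higher in Wing* than in Wing. In all 5 pairs 17 of 3003 genes were higher, among them Krt14, Fabp5, Fabp4, S100a9, Akr1b8, Bcl3, Gjb2, a gap junction gene, and Pkm, a glycolytic enzyme. Sprr1b was not one of them: it had 0.654 CPM in TAC1* and 1.20 in TAC1. Id2, an inhibitor of helix-loop-helix factors, was 1 of 6 genes lower in all 5, with 54.2 CPM in Wing* and 215 in Wing.

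Wing* cells were far from uniform. To compare cells of unlike depth each was thinned at random to 3000 UMIs, which kept 443 of the 446 cells, 3291 Wing, 212 Squam* and 80 LSC* cells. Sprr1b was then found in 51.9% of Wing* cells (47.2 to 56.7), against 7.32% of Wing, 10.8% of Squam* and 46.2% of LSC* cells. In Basal cells, taken as a background where little is expected, it was found in 0.228%, at a median depth of 6126 UMIs before thinning. Without thinning the Wing* and Basal shares were 58.7% and 0.98%. Dmkn was found in 51.0% of Wing* cells, S100a9 in 35.2%, Ly6d in 32.5%, Dynap in 21.2%, Tm4sf1 in 17.6% and Sprr2d in 9.26%. In Basal cells at most 1.56% held any 1 of these 6. In LSC* cells the shares were 66.25%, 78.75%, 46.25%, 10%, 1.25% and 11.25%, in the same order. Without thinning these Wing* shares were 65.2%, 50.9%, 47.3%, 34.8%, 40.6% and 15.02%, in the same order. Counted over 332 sets of like barcodes, Sprr1b was found in 52.1% (46.6 to 57.6).

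Of the 7 marker genes of the class, 140 thinned cells (31.6%) showed none, 62 showed 1 and 10 showed all 7. At least 3 markers were found in 42.2% of Wing*, 0.243% of Wing, 3.77% of Squam* and 50% of LSC* cells, and in 43.7% of the Wing* sets of like barcodes. At least 1 was found in 68.4% of Wing*, 14.8% of Wing, 35.85% of Squam*, 98.75% of LSC* and 3.38% of Basal cells. S100a9 had the highest variance relative to its mean among 623 genes (a Fano factor of 51.0 over thinned cells), followed by Asprv1, Malat1, a nuclear RNA, S100a8, Sprr1a and Krt16. Krt14 and Krt16 were found in most cells: Krt14 was detected in 94.6% and Krt16 in 96.2% of Wing* cells, with medians of 29 and 33 UMIs per 3000, where the medians in Wing were 0 and 0.

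**Figure D5:**
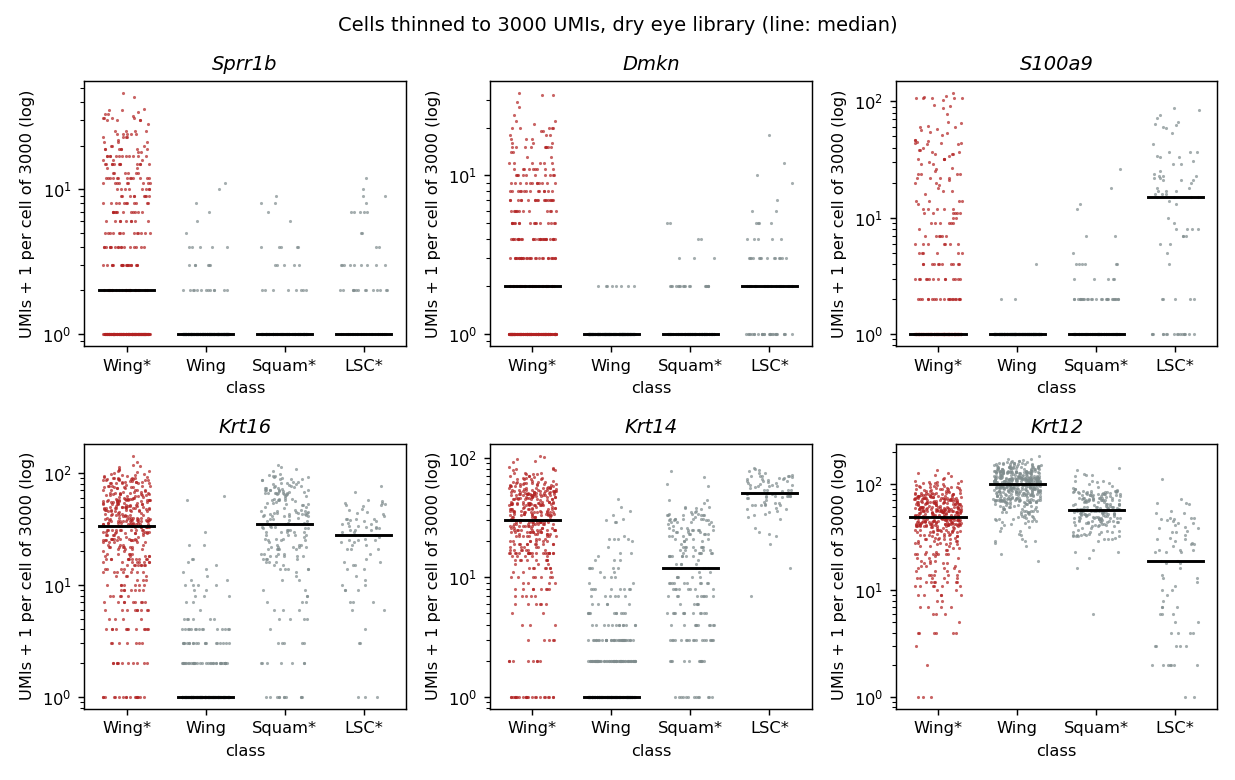
Points are single dry eye cells thinned to 3000 UMIs (443 Wing*, 450 drawn at random from 3291 Wing, 212 Squam* and 80 LSC*), plotted as UMIs + 1 on a log axis for 6 genes, and black lines are medians over all cells of the class. Sprr1b, Dmkn and S100a9 run from 0 to high values within Wing*, with medians of 1, 1 and 0 UMIs, whereas Krt16 and Krt14 are raised in nearly all cells.

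Sprr1b and corneal genes ran opposite to each other among the cells. Sprr1b went with Sprr1a (Spearman rho 0.84 over 443 thinned cells), Sbsn (0.70), Dmkn (0.68) and Cnfn (0.57), and against Aldh3a1, a corneal crystallin (-0.69), Krt5 (-0.53) and Krt12 (-0.45). Sprr1a had -0.68, -0.54 and -0.33 with these 3, and the sparser Sprr2d -0.30, -0.15 and -0.23. These cells come from 1 library, and its rho with the UMIs of the cell was -0.28. Krt14 formed another axis, with Fabp5 (0.60) and Krt16 (0.53), against Asprv1 (-0.58), and its rho with Sprr1b was -0.08. The 230 cells with a Sprr1b UMI had on average 27.0 Sprr1a, 6.25 Dmkn, 5.04 Aldh3a1 and 37.9 Krt12 UMIs per 3000, against 2.73, 0.446, 17.8 and 59.9 in the 213 cells without one. For Krt14 both groups of cells were alike, with means of 31.4 and 31.2. Of the cells with Sprr1b, 54.8% also had S100a9, against 14.1% of those without, and 98.7% had Krt12.

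Few Wing* cells showed genes of dividing cells. A UMI of Mki67 or Top2a was found in 4.97% of thinned Wing* cells (3.14 to 7.42), 1.98% of Wing (1.53 to 2.51), 0.943% of Squam* and 12.5% of LSC* cells (6.16 to 21.8). Squam cells, a layer that should not divide, had 1.19% (0.826 to 1.66) and Basal cells 2.05%. Over sets of like barcodes the Wing* share was 4.52% (2.55 to 7.34). Ube2c, of mitotic exit, had 35.4 CPM in Wing*, 10.4 in Wing and 169 in LSC* cells.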

How the data were processed

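Wing* cells were taken by the class name in the deposited table of cells. The deposited values are UMI counts per gene and cell, which the authors did not normalize: 0 values were not whole or below 0, over 17891 genes. Cell Ranger 6.0.1, Seurat 4 and mouse build mm10 are named per the submitters' processing notes. The sources used here do not state how cells were filtered and classed, and some list genes were not analysed here.

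UMI counts were summed per library and class and divided by the class total to give CPM. Genes were compared with at least 50 UMIs over both classes and 20 CPM in one. A ratio carries a 95% interval (Clopper-Pearson, exact) computed on the counts of both classes, against a floor of 3 counts where one side is 0, and genes at least 2-fold apart are counted. The calculation was tested on simulated counts. No doublet caller was run and free RNA was not removed, except in the alternatives.

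Named genes follow a rule: ranked by the bound of the interval nearest to 1, leaving out predicted, mitochondrial, ribosomal and haemoglobin genes, the 15 highest and 10 lowest over Wing, 6 and 6 over Squam* and LSC*, 8 over the next class, 2 and 2 of each list, 6 by Fano factor, and markers. Some genes that the rule names are not reported here. Genes of small counts, of the starred overlap and of the complex on chromosome 3 were named after their values were seen. The members, markers and 33 lists (562 of 603 genes in the table) were chosen with earlier results of these data known. Promoters came from RefSeq (GRCm38.p6), 1 per gene except Dmkn, whose window is the one that ends at its annotated start, and gene positions from GENCODE M21 of the same build. Python 3.11.15, numpy 2.4.6, scipy 1.17.1 and pandas 2.3.3 were used.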

Additional observations from a re-analysis of the deposited data

How the results depend on the processing

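No paired analysis was possible because each group was 1 library. Against Wing, 157 genes lower became 236 as a mean over cells, 246 without the 5% of cells with the most UMIs and 395 with control Wing cells as reference. A filter of only 10 UMIs gave 1238 higher and 1192 lower than Wing, 3267 and 665 than Squam*, and 1316 and 877 than LSC*. Against Squam*, median-of-ratios scaling gave 339 higher and 848 lower. The share of Wing* cells was 2.21% without the deepest cells. The causes were not tested. The other alternatives kept each count within 1.5 times, those with 1 barcode per set of like barcodes, added after the data were seen, included. No called ratio of the 159 named genes changed direction. Without the 5% of cells with the most UMIs, 32 ratios over Wing moved by more than 1.5 times: S100a9 stood at 812, Dmkn at 158, Sprr2d at 1698 and Cxcl3, a chemokine, at 509 (25.4 in all cells). Without them Krt12, at 0.484, and Calml3, at 0.468, came to be at least 2-fold lower. Under median-of-ratios scaling Krt15, at 0.510, and Muc20, at 0.512, no longer were. Without the 10 cells with the most UMIs of the gene, 32 did, with Sprr2f at least at 116, S100a9 at 504 and Calm4 at 1.62. With control Wing cells as reference, 77 did.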

Other observations

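Of serpins and stefins, 6 of 13 compared genes were at least 2-fold higher in dry eye Wing* cells than in Wing cells and 0 lower, and of proteases and their inhibitors 6 of 14 and 0. Epithelial transcription factors were higher in 5 of 24 and lower in 0. Over all genes compared, 5.23% were higher and 3.31% lower. Serpinb2, an inhibitor of plasminogen activators, had 46.8 CPM in Wing* and 3.27 CPM in Wing, a ratio of 14.3 (12.2 to 16.9). It was compared only through its level in Wing*, and such counts are descriptions and no support. Ifitm3, an interferon-induced membrane protein, had 494.5 and 32.5 CPM, a ratio of 15.2 (14.5 to 16.01) that became 44.2 after free RNA was subtracted, while its level in LSC* was 2029 CPM. Of the 5 type I interferon genes compared with Wing, it was the 1 at least 2-fold higher. Barx2, a homeobox factor, had 42.0 and 6.25 CPM, and Chac1, of glutathione breakdown, 23.0 and 4.62 CPM. Alox12, a lipoxygenase, was lower, with 4.92 CPM in Wing* and 27.8 CPM in Wing, and so was Muc20, a membrane mucin, with 22.8 and 45.6 CPM.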
